A study of Mus musculus with 6 samples.

Results

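Conventional dendritic cells are the leukocytes that take up antigen in a tissue, carry it to the draining lymph node and show it to T cells. Their first branch, cDC1, depends on the transcription factors BATF3 and IRF8, displays antigen from dead cells to cytotoxic T cells, and is recognised by the dead-cell receptor CLEC9A and the chemokine receptor XCR1. The second branch, cDC2, depends on IRF4 and is better known for priming helper T cells. In the infarcted heart these cells are a small minority among macrophages and monocytes, and they take up debris of dead heart muscle.

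The 10 genes described here were chosen by name as genes of these cells: Clec9a, Xcr1, Batf3, Irf8, Itgae, Flt3, Irf4, Cd209a, Ccr7 and Fscn1. All 10 were found among the 16199 genes of the deposited table, and all 10 were among the 14025 genes tested. The samples were infarcted mouse myocardium from 7 days after infarction, which was made by tying off (ligation of) the left anterior descending branch of the coronary artery. Of the 6 libraries, 3 carry the genotype wild type and 3 the genotype ITIH5 knockdown (KD-labelled libraries below), and both groups had the ligation, so no uninjured heart is part of the comparison. The labels used here give no strain, age, sex or method of knockdown, and do not say whether each library stands for its own animal. The p-values therefore reflect the spread among these 6 libraries alone, and that spread may be technical.

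Each value is on a scale close to TPM, a length-corrected share of reads, and carries an adjustment between libraries that the sources used here do not describe. Low values sat at whole multiples of a step that differed by library, from 0.889 in wild-type replicate 3 to 1.16 in KD-labelled replicate 1, and a library held 996826 to 1013982 steps in all. Low values are also given in steps, which removes that difference but is not neutral between the groups. Divided by the step, all tested genes had a median log2 difference (KD-labelled minus wild type) of -0.14, against 0.00 on the deposited scale. Step values thus lean lower in the KD-labelled libraries than deposited values do. Which of the scales is nearer the RNA levels was not tested. KD-labelled replicate 1 alone held values between 0 and 0.2 (1078 of them, against 0 in each other library) and had 212 genes at exactly 0, against 731 to 1082, so genes at the bottom of the range are described here by whether they round to 0 steps. The table holds no read counts and the depth behind each value is unknown. Itih5 itself was not lower in the KD-labelled libraries (log2 difference 0.26, SE 0.27, adjusted p = 0.645, exact two-sided permutation p = 0.5, in a design of 3 against 3 whose smallest possible p is 0.1). Directions given here are therefore those of the labels, not of a measured loss of Itih5. KD-labelled replicate 1 stood apart in its cell markers: its mean score was 1.24 over 7 heart muscle markers and -0.79 over 6 pan-leukocyte markers, against -0.48 to 0.24 and 0.01 to 0.36 in the other 5 libraries. A score is the mean over the genes of log2(value + 1) minus the gene's mean over the 6 libraries.

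No conventional dendritic cell gene passed the test. Of the 10, 0 had an adjusted p under 0.05 in limma, where 0% of all tested genes did, and 1 of the 10, Clec9a, had an unadjusted p under 0.05, on the higher side. Over all tested genes, 8.29% reached that p on the higher side and 6.55% on the lower side. The mean of 7 members was higher in the KD-labelled libraries and that of 3 was lower, where 50.8% of all tested genes had a higher and 49.2% a lower mean. The median log2 difference of the 10 was 0.06, against 0.00 for all tested genes. That split of the members depended on single libraries and on the scale between them. It was 5 higher and 5 lower without wild-type replicate 3 (median -0.040) or without KD-labelled replicate 3 (median -0.0042), and the median was 0.21 without KD-labelled replicate 1 and 0.16 without wild-type replicate 2. With each library divided by its own step the median of all genes moved by -0.14, 5 members were higher and 5 lower, and the median of the 10 was -0.05. On the same scale the genes with an unadjusted p under 0.05 were split as 438 higher and 1453 lower, against 1162 and 919 on the deposited scale.

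The stretch of genome before the start site of 3 members is shown to set the receptors beside a transcription factor that acts in the same cells. The bases come from RefSeq (GRCm38.p6, the same assembly as mm10), run 5′ to 3′ on the gene's own strand and end at the base before the start. Capitals mark GAAA on either strand (GAAA or TTTC as printed), the core that interferon regulatory factors such as IRF8 and IRF4 contact.
Clec9a, chr6:129408612-129408861, plus strand: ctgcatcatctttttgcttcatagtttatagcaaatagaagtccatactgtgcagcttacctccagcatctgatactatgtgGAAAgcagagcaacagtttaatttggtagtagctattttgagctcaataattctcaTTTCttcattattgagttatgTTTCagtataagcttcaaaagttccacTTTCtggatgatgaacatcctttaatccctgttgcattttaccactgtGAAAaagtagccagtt
Xcr1, chr9:123862030-123862279, minus strand: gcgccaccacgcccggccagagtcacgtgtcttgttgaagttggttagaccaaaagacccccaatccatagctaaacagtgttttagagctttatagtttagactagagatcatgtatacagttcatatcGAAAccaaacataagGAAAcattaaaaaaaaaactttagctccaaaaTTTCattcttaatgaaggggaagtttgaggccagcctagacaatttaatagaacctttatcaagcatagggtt
Irf8, chr8:120736108-120736357, plus strand: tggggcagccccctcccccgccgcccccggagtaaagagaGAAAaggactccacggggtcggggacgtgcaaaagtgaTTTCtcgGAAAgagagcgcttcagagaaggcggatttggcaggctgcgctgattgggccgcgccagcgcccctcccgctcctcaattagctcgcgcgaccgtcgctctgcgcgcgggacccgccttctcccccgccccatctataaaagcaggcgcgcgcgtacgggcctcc

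The 3 windows differ in base composition. G and C made up 35.6% of the Clec9a window and 38.8% of the Xcr1 window, against 67.2% of the Irf8 window and a median of 52.4% over the 32851 windows of 250 bases in the table. GAAA stood 5 times before Clec9a, 3 times before Xcr1 and 3 times before Irf8, where the median window held 2 and 86.4% of all windows held at least 1. The table had windows for 8 members (9 windows, Irf8 having 2), and not for Itgae and Ccr7. None of the 9 held the core of the interferon-stimulated response element (2 copies of GAAA with 2 bases between, found in 2.98% of all windows), the ETS-IRF composite element (GGAA, 2 bases, GAAA, in 2.3%) or the AP-1 site TGANTCA (in 6.75%), each searched on both strands. That says only that these letters are not in these windows. The whole Clec9a window also lies inside an exon of a Clec1b transcript on the same strand (exon from 129405107 to 129409335, in a transcript of 2 exons in GENCODE M21). Clec1b itself was listed at 0 in 2 libraries and at 0.932 to 1.11 in the other 4.

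Of the transcription factors, Batf3 had a higher and Irf8 and Irf4 had lower means in the KD-labelled libraries, and none of the 3 passed the test. Batf3 encodes the AP-1 family factor that cDC1 need to develop. It was at 4.87, 6.57 and 4.47 in wild-type replicates 1, 2 and 3 and at 5.78, 5.78 and 7.98 in the KD-labelled replicates 1, 2 and 3. The groups overlapped, wild-type replicate 2 lying above 2 of the KD-labelled libraries. The group means were 5.30 ± 1.12 and 6.52 ± 1.27 (SD, n = 3 each), and the fitted log2 difference, always KD-labelled minus wild type, was 0.26 (SE 0.18, 95% interval -0.17 to 0.68, adjusted p = 0.495).

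Irf8, which cDC1 require and which macrophages, B cells and plasmacytoid dendritic cells also express, was the second most abundant member. In GENCODE M21 the protein-coding gene model Gm20388 on the same strand spans Irf8 (20337 shared bases), was not analysed here, and could share its reads. It was at 51.8, 38.4 and 38.9 in wild-type libraries against 24.8, 36.6 and 41.9 in KD-labelled ones. Its lowest value was in the library with the lowest pan-leukocyte score, KD-labelled replicate 1, and replicate 3 of that group lay above 2 wild-type libraries. The means were 43.1 ± 7.59 and 34.4 ± 8.77 (SD, n = 3 each). The log2 difference was -0.33 (SE 0.21, 95% interval -0.83 to 0.16, adjusted p = 0.450). It was -0.12 without KD-labelled replicate 1, and 0.06, the other direction, with the pan-leukocyte score of each library as a covariate. That score ran from 0.09 to 0.36 in wild-type and from -0.79 to 0.06 in KD-labelled libraries, without overlap. A fit with this covariate thus separates score from label only by assuming that values follow the score in a straight line, which was not tested.

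Irf4, the factor of cDC2 that B cells, plasma cells and some macrophages also use, sat at only 1 to 4 steps. It was at 1.95, 1.87 and 3.69 in wild type, or 2, 2 and 4 steps, and at 1.22, 0.945 and 2.00 in the KD-labelled libraries, or 1, 1 and 2 steps. Apart from wild-type replicate 3, all libraries were at 1 or 2 steps. The log2 difference was -0.54 (SE 0.28, 95% interval -1.19 to 0.11, adjusted p = 0.380), and without that wild-type library it was -0.31. B cell markers were highest in the same library, wild-type replicate 3 (score 1.57, against -1.62 to 0.68 in the other 5), and all 7 of them had lower means in the KD-labelled libraries. Their summed value ran from 776 to 1507 in wild type and from 111 to 677 in the KD-labelled libraries, and their part in the Irf4 values was not tested.

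**Figure D1:**
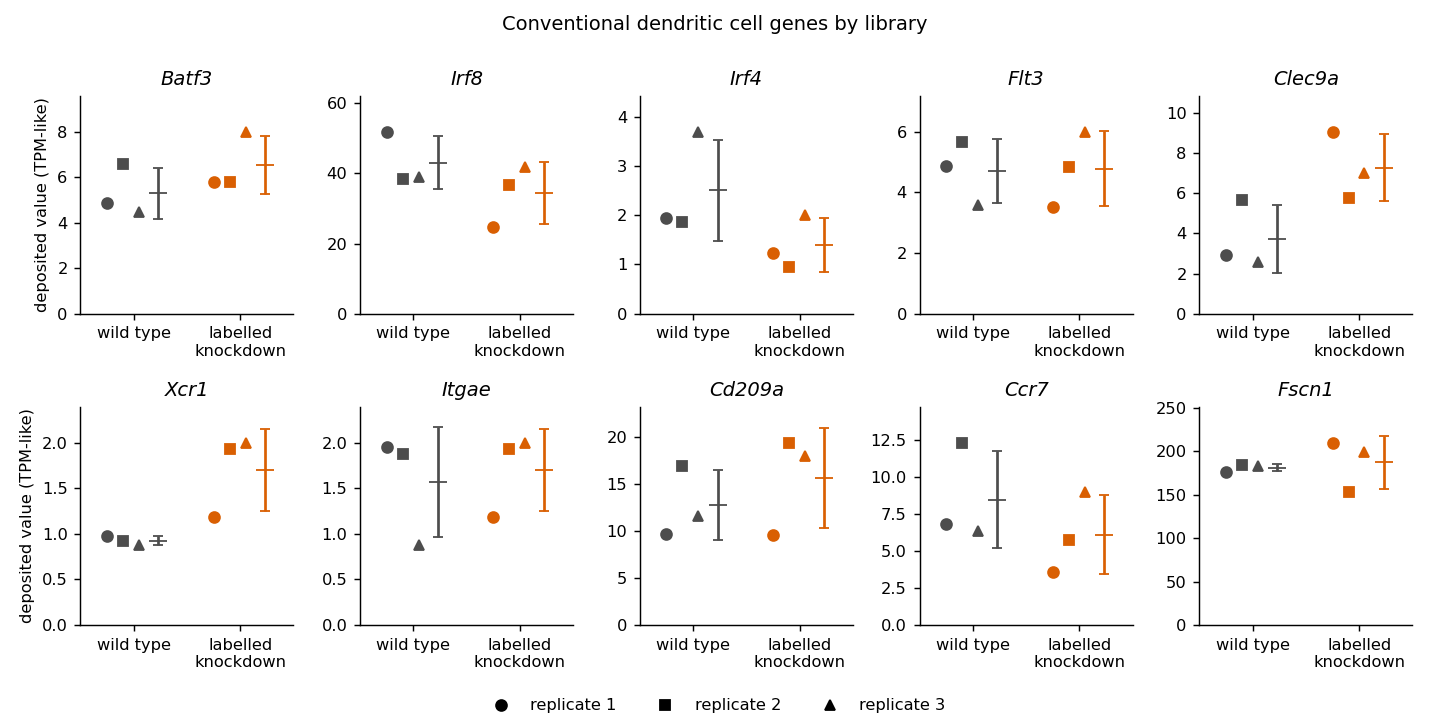
Deposited TPM-like value (vertical axes, each starting at 0) of the 10 conventional dendritic cell genes in wild-type (grey) and KD-labelled (orange) libraries, marker shape giving the replicate, with the group mean and SD beside the points. Clec9a and Xcr1 show no overlap between the groups on this scale, and the other 8 genes overlap.

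Flt3 encodes the growth factor receptor that conventional dendritic cells need from their bone marrow precursors onward, and Flt3l its ligand. The receptor gene was at 4.88, 5.65 and 3.58 in wild-type libraries against 3.53, 4.83 and 5.99 in KD-labelled ones, 2 sets that cover nearly the same range. Its log2 difference was 0.01 (SE 0.21, 95% interval -0.49 to 0.52, adjusted p = 0.976), and -0.11 with each library divided by its step. The ligand gene was at 8.75, 15.1 and 7.04 in wild-type libraries against 13.8, 14.5 and 17.97 in KD-labelled ones. Wild-type replicate 2 overlapped the other group, and the log2 difference was 0.60 (SE 0.25, adjusted p = 0.335). In GENCODE M21 the annotated antisense gene Gm26597 shares 936 bases with Flt3, and the sources used here do not say whether reads were counted by strand.

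Clec9a had the largest fitted difference of the 10. The gene encodes the C-type lectin with which cDC1 bind actin filaments exposed by dead cells, and it lies on chromosome 6 from 129408862 to 129424763 (mm10, plus strand, up to 7 exons in a transcript). It was at 2.91, 5.65 and 2.58 in wild-type libraries against 9.05, 5.78 and 6.99 in KD-labelled ones. All 3 KD-labelled libraries lay above all 3 wild-type libraries, but by a narrow gap between wild-type replicate 2 and KD-labelled replicate 2. In whole steps the values were 3, 6 and 3 against 8, 6 and 7, so these 2 libraries stood at the same number of steps and the groups touched. The means were 3.71 ± 1.69 and 7.27 ± 1.65 (SD, n = 3 each). The log2 difference was 0.85 (SE 0.27, 95% interval 0.22 to 1.48), with an unadjusted p of 0.0149 in limma and an adjusted p of 0.298. Leaving out 1 library at a time gave 0.68 to 1.13, the highest without wild-type replicate 2. Gm43914, a gene of sense-intronic type annotated inside Clec9a on the same strand, was at 0.967, 1.88 and 0 in wild-type libraries against 1.18, 2.92 and 2.99 in KD-labelled ones, with overlap, and its part in the Clec9a values was not tested.

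Xcr1, the receptor through which cDC1 are drawn by XCL1, pointed the same way at a level of only 1 or 2 steps. It was at 0.972, 0.925 and 0.875 in wild-type libraries against 1.18, 1.93 and 2.00 in KD-labelled ones. In steps it was at 1 in all 3 wild-type libraries and in KD-labelled replicate 1, and at 2 in replicates 2 and 3 of that group. The absence of overlap on the deposited scale thus rested partly on the larger step of replicate 1. The log2 difference was 0.48 (SE 0.22, 95% interval -0.04 to 1.00, adjusted p = 0.351). Clec9a and Xcr1 were the 2 of 10 members whose groups did not overlap on the higher side, where 12.6% of all tested genes did not, and 0 of 10 members did not overlap on the lower side, where 9.88% of all genes did not. In whole steps no member was free of overlap, where 2.91% of all genes were on the higher and 15% on the lower side.

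Expression of Xcl1, the ligand gene transcribed by natural killer and CD8 T cells, was at 1.94, 2.81 and 2.77 in wild-type libraries against 0.0465, 0.954 and 2.99 in KD-labelled ones. In steps these are 2, 3 and 3 against 0, 1 and 3, and the groups overlapped (log2 difference -0.79, SE 0.46, adjusted p = 0.423). The ligand gene had a lower mean where its receptor gene had a higher one, both within a few steps of 0.

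**Figure D2:**
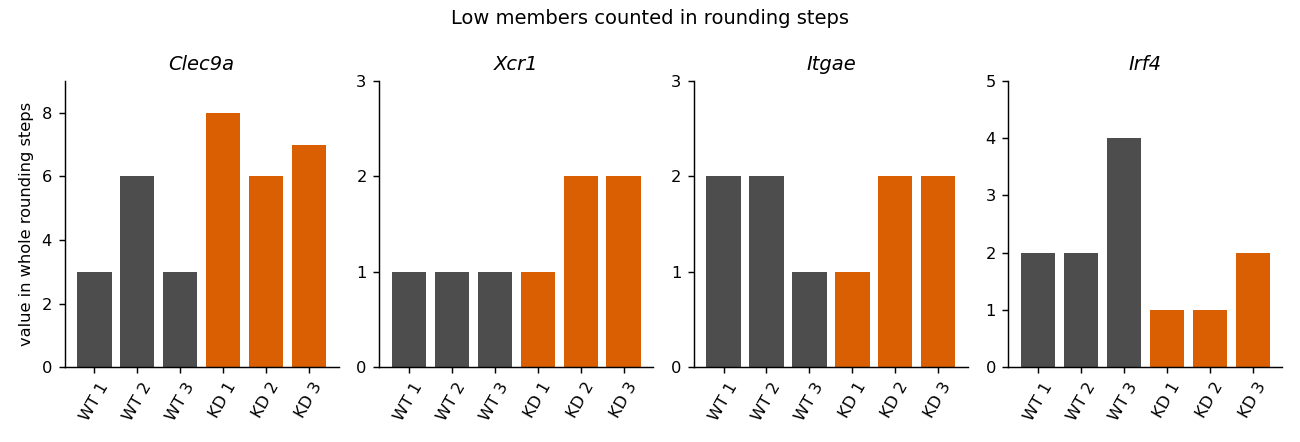
Values of Clec9a, Xcr1, Itgae and Irf4 in whole rounding steps (vertical axes from 0) for each wild-type (WT, grey) and KD-labelled (KD, orange) library. The tallest bar is 8 steps, Clec9a in KD-labelled replicate 1, and Xcr1 is at 1 or 2 steps in all 6 libraries.

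Itgae encodes CD103, the integrin chain that pairs with the beta 7 chain of Itgb7 and binds E-cadherin, the product of Cdh1, on epithelium. It marks cDC1 in many tissues and also resident CD8 T cells. It was at 1.95, 1.88 and 0.875 in wild-type libraries against 1.18, 1.93 and 2.00 in KD-labelled ones, which is 2, 2 and 1 steps against 1, 2 and 2. The same 2 levels occurred in both groups. The log2 difference was 0.09 (SE 0.26, 95% interval -0.53 to 0.71, adjusted p = 0.876), and -0.12 without wild-type replicate 3. The gene Haspin, on the opposite strand, lies within the span of Itgae (2810 shared bases) and was more abundant, at 2.87 to 4.89. The partner gene Itgb7 was at 11.7, 13.1 and 14.6 in wild-type libraries against 6.04, 8.65 and 15.97 in KD-labelled ones (log2 difference -0.43, SE 0.30, adjusted p = 0.489), so 1 library of the second group exceeded all of the first. Cdh1 was at 1 or 2 steps in every library (log2 difference -0.30, SE 0.22).

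Cd209a encodes the mouse relative of DC-SIGN, a C-type lectin of monocyte-derived cells and cDC2. It was at 9.71, 16.9 and 11.6 in wild-type libraries against 9.53, 19.4 and 17.96 in KD-labelled ones. The lowest value of all 6 was again in KD-labelled replicate 1, while replicates 2 and 3 of that group were the 2 highest. The log2 difference was 0.25 (SE 0.29, 95% interval -0.44 to 0.93, adjusted p = 0.676). Leaving out 1 library at a time gave 0.07, without KD-labelled replicate 2, to 0.55, without KD-labelled replicate 1 (adjusted p = 0.471 in limma). Cd209a belongs to a family of neighbouring, similar genes, among which reads could be divided. The 4 others in the table, Cd209b, Cd209c, Cd209d and Cd209f, were low and at 0 steps in at least 2 libraries each, with 4.67 for Cd209f in wild-type replicate 3 as their highest value. All 4 had lower means in the KD-labelled libraries. Cd209f had a log2 difference of -1.31 (SE 0.46, adjusted p = 0.302 in limma), and the others were too low to be tested. Their part in the Cd209a values was not tested.

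Of the genes that mark mature, migrating dendritic cells, Ccr7 had a lower mean in the KD-labelled libraries and the wild-type values of Fscn1 lay within the range of the other group. Ccr7 encodes the receptor that leads dendritic cells, and also T and B cells, into lymphatic vessels. It was at 6.82, 12.3 and 6.35 in wild-type libraries against 3.60, 5.78 and 8.98 in KD-labelled ones. KD-labelled replicate 3 lay above 2 wild-type libraries, and wild-type replicate 2 was the highest of all. The means were 8.49 ± 3.31 and 6.12 ± 2.70 (SD, n = 3 each), and the log2 difference was -0.43 (SE 0.33, 95% interval -1.21 to 0.35, adjusted p = 0.524). Either of 2 libraries carried much of this value: it was -0.15 without KD-labelled replicate 1 and -0.16 without wild-type replicate 2.

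The ligand genes of CCR7 were low as well. Ccl21a, which lymphatic endothelium secretes, was at 4.85, 3.66 and 6.29 in wild-type libraries against 6.96, 6.74 and 13.98 in KD-labelled ones, with no overlap (log2 difference 0.74, SE 0.29, adjusted p = 0.318). Of all tested genes 12.6% were free of overlap on the higher side. In whole steps the groups of Ccl21a overlapped, wild-type replicate 3 and KD-labelled replicate 2 both being at 7 steps. Ccl19 was at 0 steps in 5 of the 6 libraries and was too low to be tested. Reads of Ccl21a may be divided with near-identical copies of the gene.

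Fscn1 encodes fascin, the protein that bundles actin into the dendrites of mature dendritic cells, and it is also made by endothelial and other cells. It was by far the most abundant member, at 177, 184 and 183 in wild-type libraries against 210, 153 and 199.6 in KD-labelled ones. All 3 wild-type values were between the lowest and the middle KD-labelled value (log2 difference 0.03, SE 0.13, 95% interval -0.28 to 0.35, adjusted p = 0.908), and the difference was -0.12 with each library divided by its step. Averaged over the 6 libraries its level on the length-corrected scale was 184, against 1.31 for Xcr1, 1.64 for Itgae and 1.94 for Irf4, the lowest members. Only 3.13% of tested genes had a mean as low as that of Xcr1 or lower, 5.57% for Itgae and 7.51% for Irf4. Pecam1, an endothelial marker, was highest and lowest in the same libraries as Fscn1 on the deposited scale, at 290 in KD-labelled replicate 1 and at 134 in replicate 2. In steps the lowest library was still shared, but Fscn1 was at 181, 197 and 206 against 180, 160 and 200, highest in wild-type replicate 3, while Pecam1 was highest in KD-labelled replicate 1 at 249. The part of endothelial cells in the Fscn1 values was not tested.

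**Figure D3:**
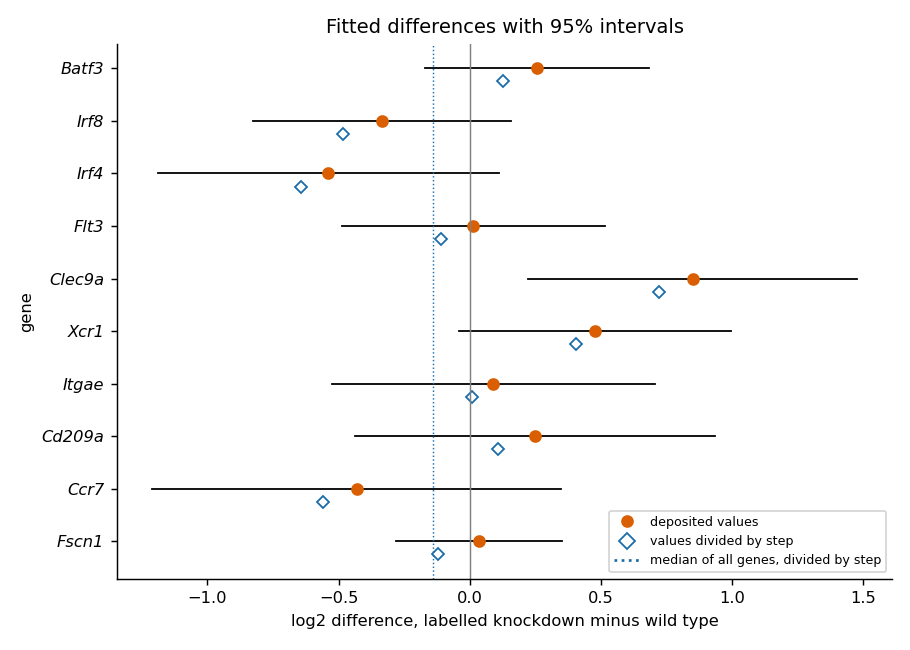
Log2 difference fitted for each member, KD-labelled minus wild-type libraries (horizontal axis), with its 95% interval (line) on the deposited values (orange points), and with each library divided by its step (open diamonds). The interval of Clec9a, 0.22 to 1.48, is the only one of the 10 on the deposited scale that does not reach 0, before any adjustment for the number of genes, and all 10 diamonds lie to the left of their points.

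A further 22 genes of conventional dendritic cells were looked up, of which 21 were tested. Their means were lower for 15 and higher for 6, with a median log2 difference of -0.22, and 0 passed the test in limma. The list was not limited to genes that only these cells express. Some were abundant, Sirpa at a mean of 160 and Spi1 at 91.5. The part of other cells in this split was not tested. At an unadjusted p under 0.05 there were 6 lower and 2 higher, against 6.55% lower and 8.29% higher of all tested genes. With each library divided by its step 17 were lower and 4 higher (median -0.36), where the median of all genes was -0.14. Without KD-labelled replicate 1 all 22 reached the limit on the mean and were tested, with 12 lower and 10 higher (median -0.091). The 4 with the smallest p were Cd24a, Zbtb46, Wdfy4 and Batf2. Cd24a, a surface protein of cDC1 that B cells and other cells also carry, was at 41.1, 27.2 and 39.2 in wild-type libraries against 17.9, 25.98 and 23.9 in KD-labelled ones, with no overlap (log2 difference -0.64, SE 0.20, adjusted p = 0.297). Wdfy4, which cDC1 need to cross-present antigen, was at 7.83, 6.57 and 8.22 against 3.64, 5.77 and 5.99, also without overlap, in whole steps too (log2 difference -0.50, SE 0.19, adjusted p = 0.313). On the deposited scale 4 of the 21 were free of overlap on the lower and 2 on the higher side, against 9.88% and 12.6% of all tested genes. In whole steps 15% of all tested genes were free of overlap on the lower and 2.91% on the higher side. Batf2, a relative of Batf3, had a log2 difference of -0.67 (SE 0.25, adjusted p = 0.313).

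Zbtb46, a transcription factor gene of conventional dendritic cells that endothelial cells also express, went the other way, at 7.80, 7.46 and 7.96 in wild-type libraries against 20.3, 8.62 and 12.98 in KD-labelled ones (log2 difference 0.70, SE 0.26, adjusted p = 0.313). Its groups did not overlap on the deposited scale. In steps it was at 8, 8 and 9 against 17, 9 and 13, so the groups touched at 9. The cDC1 genes on the 2 lists thus did not share a direction, Clec9a and Xcr1 having higher means and Wdfy4 and Cd24a lower ones, with none past the test. Both Clec9a and Zbtb46 were highest in KD-labelled replicate 1. The 4 endothelial markers Pecam1, Cdh5, Kdr and Tie1 were highest there too, their summed value running from 415 to 456 in wild type and from 347 to 846 in the KD-labelled libraries, and none was at 0 in any library. Their part in the Zbtb46 values was not tested. For Clec9a the log2 difference was 0.70 without that library, 0.66 when the heart muscle score was added as a covariate and 0.50 when the pan-leukocyte score was (smallest adjusted p of these 3 fits 0.474, where all its alternatives ran from 0.169 to 0.932). The pan-leukocyte score did not overlap between the groups, so the last of these fits separates it from the label only by a straight-line assumption.

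**Figure D4:**
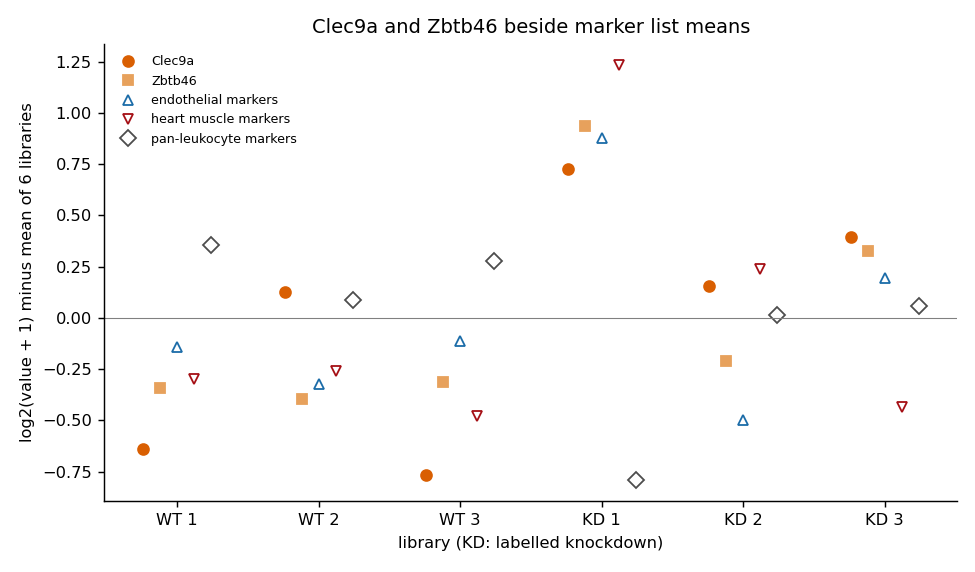
Log2(value + 1) minus the mean of the 6 libraries (vertical axis) for Clec9a and Zbtb46 (filled points) and the mean of the same quantity over endothelial, heart muscle and pan-leukocyte markers (open points), by library. In KD-labelled replicate 1 the heart muscle score is 1.24 and the pan-leukocyte score -0.79, and Clec9a and Zbtb46 are both at their highest.

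Genes of dendritic cell activation had means in both directions. Of 18 looked up, 17 were in the table and 14 tested, 9 with lower and 5 with higher means (median log2 difference -0.12). In limma 0 passed the test. At an unadjusted p under 0.05 there were 1 higher and 1 lower, against 8.29% higher and 6.55% lower of all tested genes. The split was 7 and 7 without KD-labelled replicate 1 (median -0.0054) or without wild-type replicate 2 (median -0.032), and the median was -0.054 without wild-type replicate 1 and -0.22 without KD-labelled replicate 3. With each library divided by its step the split was 13 lower and 1 higher (median -0.26), where the median of all genes was -0.14. Socs2, a feedback inhibitor of cytokine signalling that mature dendritic cells share with other cells, was that 1, at 36.1, 34.7 and 31.4 in wild-type libraries against 46.1, 39.5 and 41.9 in KD-labelled ones (log2 difference 0.31, SE 0.10, adjusted p = 0.299). Its groups did not overlap in whole steps either, where 2.91% of all tested genes were free of overlap on the higher side. Samsn1 (-0.46, SE 0.19), the maturation marker gene Cd83 (-0.22, SE 0.12) and Marcksl1 (-0.26, SE 0.16) were the next by p. Il12b, the cytokine subunit gene by which cDC1 drive T helper and cytotoxic responses, was at 1 step in every library, and Pdcd1lg2 and Apol7c were at 0 steps in some libraries of both groups. The list of ligands, partners and growth factor signals had 11 tested genes of 14, 5 with higher and 6 with lower means. Of this list 0 passed the test in limma, and 2 higher and 2 lower had an unadjusted p under 0.05, against the same shares of all tested genes. Besides Flt3l and Ccl21a, its smallest p-values were those of Actg1, a gene of the actin that fascin bundles (log2 difference -0.46, SE 0.17), and Csf2rb, the shared receptor chain for GM-CSF (-0.68, SE 0.26).

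The members were set beside markers of the other leukocytes that express some of them. All 6 pan-leukocyte markers had lower means in the KD-labelled libraries (median log2 difference -0.49), and their summed value ran from 1205 to 1444 in wild type and from 634 to 1196 in the KD-labelled libraries. Without KD-labelled replicate 1 the median was -0.19, with 5 lower and 1 higher. All 8 macrophage markers were lower as well (median -0.57, Lyz2 at -0.78), also without that library (median -0.35). Of 8 T cell markers 7 had lower means (median -0.22, Cd3e at -0.29), but without KD-labelled replicate 1 the split was 3 lower and 5 higher (median 0.045). The T cell median was -0.090 without wild-type replicate 3 and -0.55 without KD-labelled replicate 3. All 7 B cell markers had lower means (median -1.39, Cd79a at -1.86), with any 1 library left out too (medians from -0.91 without KD-labelled replicate 2 to -2.18 without replicate 3). Ptprc, the CD45 gene of all leukocytes, overlapped between the groups (log2 difference -0.25, SE 0.22). The 7 heart muscle markers had higher means (median 0.71, Tnnt2 at 0.44), and the median was 0.26 without KD-labelled replicate 1 (6 higher, 1 lower) and 1.22 without replicate 3. The 4 endothelial markers had higher means too (median 0.38, Pecam1 at 0.16), with a median of 0.042 without KD-labelled replicate 1 (3 higher, 1 lower) and 0.69 without replicate 2. No gene of any of these lists passed the test. Of the T and B cell markers, Pax5 was at 0 steps in KD-labelled replicates 1 and 2 and no other was at 0 steps in any library. In bulk tissue fewer cells of a type and less RNA per cell cannot be told apart. With the pan-leukocyte score as a covariate, the log2 differences were 0.50 for Clec9a, 0.72 for Xcr1, 0.63 for Cd209a, 0.31 for Batf3, 0.31 for Itgae, 0.25 for Flt3, 0.06 for Irf8, -0.09 for Ccr7, -0.10 for Fscn1 and -0.43 for Irf4, none past the test (smallest adjusted p 0.932 in limma). Because that score did not overlap between the groups, this fit tells label and score apart only by a straight-line assumption, which was not tested.

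**Figure D5:**
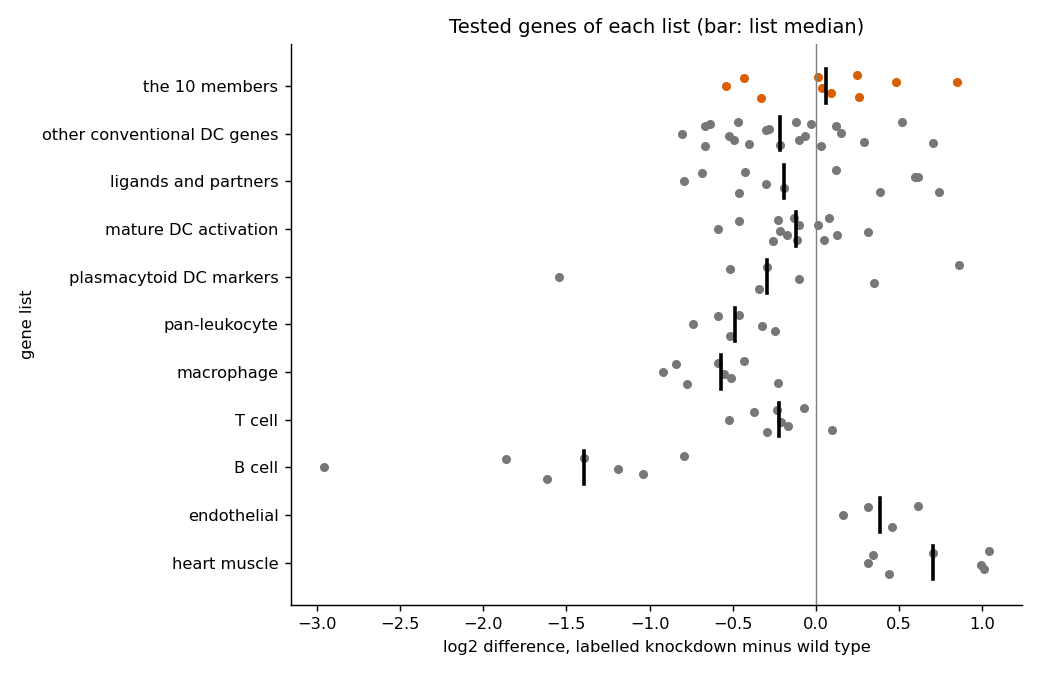
Log2 difference, KD-labelled minus wild-type libraries (horizontal axis), fitted for every tested gene of each list, 1 point a gene, with the list median as a bar (DC, dendritic cell). The median is 0.06 for the 10 members and -0.49 for the pan-leukocyte markers.

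The 10 genes also differed in how they ordered the libraries. In whole steps KD-labelled replicate 1 was alone at the lowest value for 4 members (Irf8, Flt3, Cd209a and Ccr7) and alone at the highest for Clec9a. KD-labelled replicate 3 was alone at the highest value for Batf3, replicate 2 of that group for Cd209a, wild-type replicate 1 for Irf8, replicate 2 for Ccr7 and replicate 3 for Irf4 and Fscn1. The highest values of the other 3 members were ties: Xcr1 and Itgae each held only 2 levels, and Flt3 was at 6 steps in both wild-type replicate 2 and KD-labelled replicate 3. On the deposited scale wild-type replicate 3, which has the smallest step, was lowest for Clec9a, Xcr1, Batf3 and Itgae, and in steps each of these 4 was a tie with at least 1 other library. The deposited ratio of the highest to the lowest library was 1.37 for Fscn1, between 1.70 and 2.28 for Flt3, Batf3, Cd209a, Irf8, Itgae and Xcr1, and 3.41, 3.51 and 3.90 for Ccr7, Clec9a and Irf4.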

How the data were processed

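RNA was measured in 6 libraries of poly(A)-enriched RNA from infarcted myocardium, 3 per group, built on mm10 per the submitters' processing notes; for the aligner, quantifier and annotation the sources used here give no name. The values the authors deposited are an adjusted score close to TPM: columns sum to between 901563 and 1159657, and 97.3% to 100% of low values (above 0.5 and below 3.5 steps) lay within 0.15 steps of a whole multiple of the library's step, the median of its values between 0.5 and 1.5. Of 16205 rows, 6 sharing a symbol with a higher row were left out. No pair of libraries was identical.

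Groups were taken from the titles and compared on log2(value + 1) with limma 3.58.1 (R 4.3.3), an intensity trend, no covariate, and Benjamini-Hochberg adjustment at 0.05 over the 14025 genes whose mean reached 1. The design was planned for TPM and kept for the score. Fold changes on this scale understate those of low genes. The fit was also run on simulated, unrounded values, with changes larger than those of the members and only in genes above the lowest levels. That run does not bear on members within a few steps of 0 or on differences of the size seen here. The members and the lists were chosen with earlier results of these data known. The genes named are all members, up to 4 per dendritic cell list by p, fixed ligands and partners and 1 marker per cell type. Cell type lists are counted in the report or the closing section. Coordinates are from GENCODE M21. Alternatives covered pseudocount, filter, scaling, trend, replicate block, 2 covariates and each library left out.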

Additional observations from a re-analysis of the deposited data

How the results depend on the processing

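The 10 member differences were recomputed under 19 alternatives, 1 of them, rounding to whole steps, chosen after seeing the data. Of 186 values none passed the threshold, and 15 had the other sign, all in 4 members: 6 members (Clec9a, Xcr1, Batf3, Irf4, Cd209a and Ccr7) kept their direction throughout. Keeping the sign did not mean keeping the size: Ccr7 was at -0.021 with the heart muscle score as covariate. Flt3 was at -0.10 with libraries rescaled to 1000000, -0.11 divided by step and -0.11 in whole steps, and ran from -0.14 to 0.18 with 1 library left out. Fscn1 was at -0.11, -0.12 and -0.12 on those scales, -0.014 with the heart muscle score and -0.10 with the pan-leukocyte score as covariate, and ran from -0.052 to 0.17 with 1 library left out. Irf8 was at 0.062 with the pan-leukocyte and at -0.037 with the heart muscle score, and Itgae ran from -0.12 to 0.24 with 1 library left out. Calls over all genes were 0 in each direction except with 1 library left out (0 to 13 lower), and the 13 (KD-labelled replicate 3 left out) and 2 (wild-type replicate 2 left out) held no member. Genes at an unadjusted p under 0.05 numbered 460 higher and 1389 lower rescaled to 1000000, 438 and 1453 divided by step, 453 and 1352 in whole steps, 715 and 294 with the heart muscle score, and 486 and 177 with the pan-leukocyte score; with 1 library left out they ran from 655 to 1383 higher and from 334 to 1230 lower. The replicate block gave 1039 higher and 764 lower and changed no call of a member (Clec9a 0.85); same-numbered libraries correlated at 0.06, 0.06 and 0.14 in their deviations, and the number names no animal in the labels. The causes of these changes were not tested. Rounding limits Xcr1, Itgae and Irf4 most, which under a mean of at least 5 are not tested, as Flt3 is not.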

Other observations

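Markers of plasmacytoid dendritic cells, the interferon-producing relatives that share Irf8 with cDC1, were looked up as well. Siglech, their defining lectin gene, was at 2.92, 3.77 and 1.80 in wild-type libraries against 1.20, 1.93 and 2.99 in KD-labelled ones, and Ccr9 was at 0 steps in some libraries of both groups. Of 7 tested markers of 8, 5 had lower and 2 higher means, and none passed the test. At an unadjusted p under 0.05 in limma 3 were lower and 1 higher, against 6.55% lower and 8.29% higher of all tested genes. The 4 with an unadjusted p under 0.05 in limma, named after their values were seen, were Irf7 (log2 difference -0.51, SE 0.17) and Bst2 (-0.30, SE 0.12), both interferon-stimulated in many cell types, Ly6d (-1.54, SE 0.60), which B lineage cells also express, and Tcf4 (0.35, SE 0.14). Ly6d was at 18.6, 14.0 and 38.9 in wild-type libraries against 4.03, 3.72 and 18.96 in KD-labelled ones, and the groups overlapped. Cox6a2, on the list as a plasmacytoid gene but known from heart muscle, was at 1383 in KD-labelled replicate 1 and at 312 to 487 in the others.

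Searching the 12079 genes whose mean reached 3, those most like Clec9a over the 6 libraries, after centring and scaling each gene on the log2 scale, were Cfap20, Ftx, 2310057M21Rik and Mpp2, with summed squared differences of 0.0465 to 0.0526. The last 2 had identical values in every library. Those most like Ccr7 were Tnfaip2, Eri3 and Zc3hc1, at 0.180 to 0.201. These searches used the deposited scale, on which the step ran from 0.889 to 1.16, and were not repeated in steps. Ftx, 2310057M21Rik and Mpp2 were at 2.65 to 4.59, a few steps above 0. The part of the step in the likeness of these genes, and of Cfap20 at 17.0 to 23.1, to Clec9a was not tested. Other marker lists had lower means for all 3 monocyte, 4 neutrophil, 4 adipocyte and 5 mesothelial genes, for the only natural killer cell gene tested, and for 3 of 5 fibroblast genes (all 5 with each library divided by its step), none past the test. Without KD-labelled replicate 1 the neutrophil genes were 2 higher and 2 lower (median -0.042). The summed adipocyte value was 338, 962 and 487 in wild-type libraries against 2.34, 4.29 and 1002 in KD-labelled ones, so KD-labelled replicate 3 was the highest of all and the other 2 of its group were near 0 (Adipoq log2 difference -3.05). Msln, a mesothelial gene, was at 27.3, 46.2 and 18.4 against 2.70, 8.64 and 50.9 (-1.27), again highest in KD-labelled replicate 3. Klrb1c was at 0 steps in all 3 KD-labelled libraries, Plin1 and Cidec in replicates 1 and 2 of that group, and Adipoq, Upk3b, Lrrn4 and Retnlg in replicate 1.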
